A study of Mus musculus with 10 samples.

Results

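The genes described here were chosen by names linked to the motile cilium: the axonemal dyneins and their assembly factors, the proteins named cilia and flagella associated protein (Cfap), and a few genes used to recognise ependymal cells. A name does not show that a gene acts only there. Members were the protein-coding genes of the deposited count table whose symbol begins with Cfap, Dnah, Dnai or Dnaaf, together with Foxj1, Tmem212, Ccdc153 and Rsph1, with Dnah8 left out. The rule used names only and no measured value, but it was set with earlier results of these data known. It found 82 genes in the GRCm39 annotation, and 79 of them were among the 29883 genes of the table (Cfap107, Cfap97d1 and Dnaaf6rt were not in it).

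Poly-A RNA was sequenced from the nucleus accumbens (NAc), the ventral part of the striatum, of male mice aged 9 weeks, of the inbred strains C57BL/6J (here B6) and DBA/2J (here D2). The study used these strains because they differ in behaviours related to ethanol, and the mice analysed here were untreated. Each library came from 1 mouse, with 5 mice of each strain, and the comparison asks how the strains differ before any exposure. The tissue was dissected from brain slices by hand, without sorting of cells.

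Motile cilia beat because dynein motors, carried in outer and inner rows on the outer doublet microtubules, slide neighbouring doublets past each other. A central pair of microtubules, the radial spokes and regulatory complexes set the beat, and assembly factors fold the dyneins in the cytoplasm before they enter the cilium. In the brain such cilia are carried by the ependymal cells that line the ventricles, and the accumbens lies close to the lateral ventricle. Neurons and astrocytes carry a primary cilium, which is built with intraflagellar transport but has no such motor rows.

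Libraries held 96977262 to 111468080 counted reads in B6 and 104443243 to 116776714 in D2. Normalized counts below are counts scaled to a common library size, and CPM are counts per 1000000 counted reads after the same scaling. All 9 striatal neuron markers on the list used were detected in every library, and Ppp1r1b, a phosphoprotein of medium spiny neurons, had a mean of 131000 normalized counts in B6 and 111000 in D2. Of the 9, 6 were lower in D2, as were 5 of 8 oligodendrocyte markers (against 9.83% of all genes; median log2 fold change -0.35 for each list). B6 mice 3 and 5 stood apart from the other B6 mice: the summed level of 7 cortical projection neuron markers was 1010 and 1030 CPM in them and 147 to 228 CPM in B6 mice 1, 2 and 4, against 301 to 685 CPM in D2. Their libraries were also the most alike of any pair within a strain. The mean squared difference relative to counting noise was 4.886 over 15388 genes, against 17.47 for the next closest pair and 118.9 for the farthest. The fits treat these libraries as separate mice, as labelled, and the reason for their likeness was not tested. In bulk tissue, fewer cells of a type and less RNA per cell cannot be told apart.

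Short stretches of promoter are shown first, because genes of motile cilia are known for binding sites of RFX factors (the X-box) and of FOXJ1 (a forkhead protein) near their start. RefSeq promoters of the GRCm38.p6 build, from 250 bases before to 50 after each start, were matched for 47 of the 79 members. The X-box letters searched were GTNNCC, any 2 bases, and GGNNAC, which read the same on both strands, and 6 members held them (12.8%), against 2.16% of the 27025 genes with a promoter in the table (1.88% of all 32851 promoters). In the lines that follow, the X-box is in capitals with 6 bases of its surroundings on each side, written along the strand of the gene.
Cfap126: ttcaagGTATCCATGGCTACttctca
Cfap206: cgttccGTTTCCACGGTTACgcgact
Cfap20dc: ccctcaGTTGCCTGGGCAACggctca
Cfap298: gttttgGTTGCCCGGGCAACagctac
Cfap77: cgtcttGTCACCAAGGAGACgggacg
Dnaaf5: gcgccgGTTCCCTTGGAGACaggcaa

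The X-box of Cfap298 began 188 bases before the start (chr16:90935018-90935043 with its surroundings, minus strand), and that of Cfap20dc began 102 bases before it (chr14:8666373-8666398, minus strand). That of Dnaaf5 was the nearest of the 6, at 18 bases (chr5:139150211-139150236, plus strand). The forkhead letters GTAAACA, searched on both strands, were in 3 of the 47 promoters (6.38%), against 4.05% of all genes with a promoter (3.65% of all promoters). These were Cfap20 (182 bases before the start), Cfap43 (55 bases) and Dnah17 (201 bases, on the opposite strand). In Cfap43 the stretch read as follows, with the forkhead letters in capitals.
Cfap43: acaggtGTAAACAgtggca

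A match of letters is a description of the promoter and says nothing about binding in these mice. The members with a match differed in their values: Cfap298 was higher in D2, Cfap20dc was lower, and Dnaaf5 had a mean of 922 normalized counts in each strain.

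The levels of the members differed widely. Per kilobase of exon, the highest was Dnaaf9, named as an assembly factor, at a mean of 11 CPM per kilobase over the 10 mice. Cfap20, a protein of the doublet microtubules, followed at 10.8, and Cfap418, also known for its role in photoreceptors, at 10.1 CPM per kilobase. Cfap97 stood at 5.86 and Cfap36, which binds a small GTPase of the cilium, at 4.81 CPM per kilobase. The transcription factor Foxj1, which switches on the genes of motile cilia, had 2.03 CPM per kilobase. The heavy chains of the dyneins were lower, with 1.90 for Dnah1 and 0.322 for Dnah5, and the lowest member was Dnaaf6 at 0.0218 CPM per kilobase. In raw counts, 59 of the 79 members had a mean of at least 100, 72 had at least 10 in every library, and 1, Dnaaf6, had a mean under 10.

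The ependymal genes varied strongly from mouse to mouse. Tmem212, a membrane protein used as an ependymal marker, had 40.4, 7.22, 33.2, 72.6 and 46.2 normalized counts in B6 mice 1 to 5, and 5.49, 162, 33.9, 178 and 56.0 in D2 mice 1 to 5. Ccdc153, a component of the axoneme, had 134, 52.6, 92.7, 212 and 108 in B6 and 22.9, 384, 89.6, 396 and 146 in D2. In both genes D2 mice 2 and 4 were the highest of all 10 mice and D2 mouse 1 was the lowest, and the strains overlapped. Their log2 fold changes of D2 against B6 were 1.12 (standard error, SE, 0.69) for Tmem212 and 0.79 (SE 0.59) for Ccdc153, and neither passed the test (adjusted p = 0.32 and 0.43, edgeR's quasi-likelihood test with Benjamini-Hochberg adjustment over all genes, as for each adjusted p below).

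Foxj1 had 694, 760, 800, 893 and 783 normalized counts in the B6 mice, a narrow range, and 328, 831, 439, 840 and 478 in the D2 mice. D2 mice 2 and 4 lay within the B6 range and the other 3 D2 mice lay below it. The difference was -0.43 on the log2 scale (SE 0.22, adjusted p = 0.23). Rsph1, a protein of the radial spoke head, had 404, 379, 286, 424 and 308 in B6 and 326, 489, 345, 590 and 399 in D2, with D2 mice 2 and 4 again the highest (log2 fold change 0.25, SE 0.17, adjusted p = 0.36). B6 mouse 2, the lowest B6 mouse in Tmem212 and Ccdc153, was close to the B6 means of 786 ± 72.0 for Foxj1 and 360 ± 60.3 for Rsph1 (SD, n = 5). The summed level of these 4 genes was 11.1 to 14.9 CPM in B6 and ran from 6.33 CPM in D2 mouse 1 to 18.6 CPM in D2 mouse 4.

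**Figure D1:**
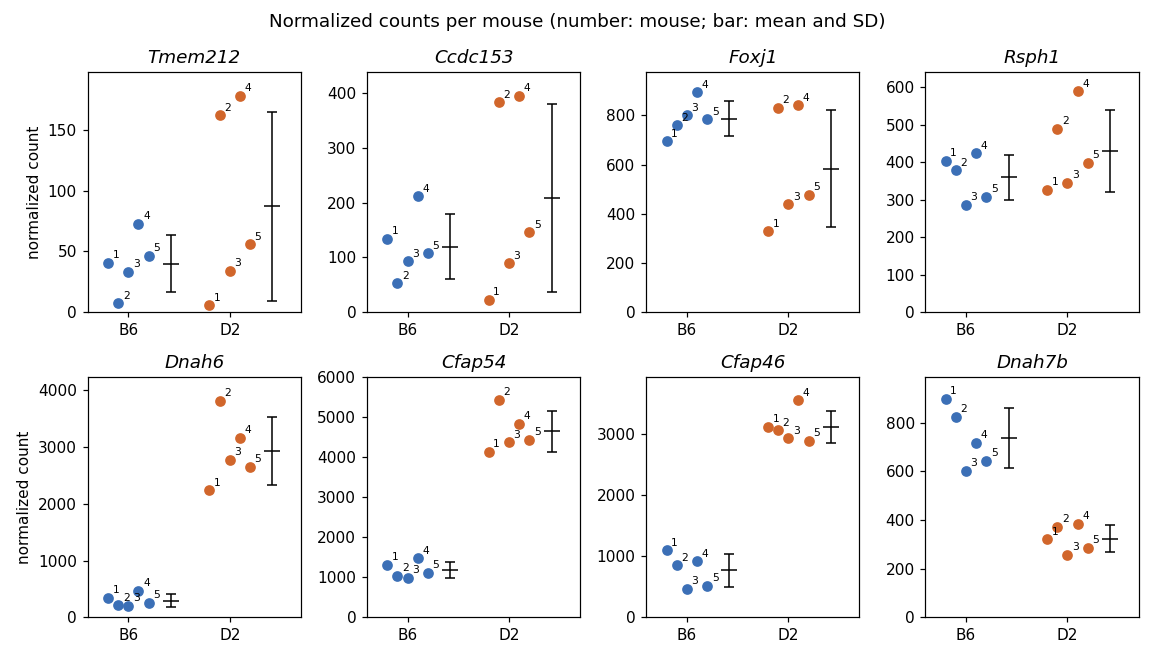
Normalized counts (vertical axes, each starting at 0) of 8 members in each of 5 B6 mice (blue) and 5 D2 mice (orange), with the number of the mouse beside each point and the mean and SD as a black bar. In the upper row D2 mice 2 and 4 are the highest D2 mice in each gene; in the lower row the strains do not overlap, with Dnah6, Cfap54 and Cfap46 higher and Dnah7b lower in D2.

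The same mice were high in most members. D2 mice 2 and 4 were the highest pair among the D2 mice in 60 of 79 members (75.9%), against 12.8% of all genes in the table. D2 mouse 1 was the lowest D2 mouse in 49 members (62.0%, against 23.3% of all genes). Among the B6 mice, mouse 4 was the highest in 47 members (59.5%, against 19.6%) and mouse 2 the lowest in 32 (40.5%, against 16.4%). The lowest B6 mouse was less uniform in the 59 members with a mean of at least 100 counts. There it was mouse 3 in 20 (33.9%), mouse 2 in 19 (32.2%) and mouse 5 in 16 (27.1%). The members share libraries, so these shares describe the 10 mice and are not separate observations. Averaged over the members, the log2 level relative to the strain mean was 0.11, -0.24, -0.07, 0.28 and -0.07 in B6 mice 1 to 5. The corresponding values were -0.52, 0.38, -0.25, 0.47 and -0.08 in D2 mice 1 to 5, so the D2 mice spanned a wider range.

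Over all 79 members and all genes, whatever their counts, the median SD of log2 CPM within strains was 0.32 and 0.25, and an SD over 0.5 was found in 25.3% of each. The gap between the medians was wider among well-counted genes. Where the mean count was 100 or more, the median SD of log2 CPM within strains was 0.24 for the 59 members and 0.09 for all 15388 genes. An SD over 0.5 was found in 7 of these 59 members (11.9%) and in 2.48% of all such genes. These sets were not matched for count above this limit, and the SD depends on the count. The part of the count in these differences was not tested. The SD was larger in D2 than in B6 in 37 of the 59 (62.7%, against 34.6% of all such genes), and in 53 of all 79 members (67.1%, against 40.5% of all genes). The members with the largest spread at this count were heavy chains of the inner dynein arms and an ependymal gene: Dnah3 (SD 1.47), Ccdc153 (1.28) and Dnah12 (1.07). Dnah3 had 87.6, 17.5, 72.1, 184 and 83.2 normalized counts in B6 and 22, 327, 70.7, 438 and 156 in D2. Dnah12 had 117, 54.7, 124, 142 and 124 in B6 and 42.1, 379, 82.0, 433 and 129 in D2. In both genes D2 mouse 1 lay near the lowest B6 mouse and D2 mice 2 and 4 lay above every B6 mouse, and their strain differences did not pass (log2 fold change 1.19, SE 0.67, adjusted p = 0.27 for Dnah3; 0.92, SE 0.53, adjusted p = 0.29 for Dnah12).

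Other members hardly moved between mice. Dnaaf9 had 19803 to 20619 normalized counts in B6 and 19546 to 21023 in D2, the smallest SD of the members (0.03 on the log2 scale). Cfap36, Cfap298, Cfap418 and Cfap68 each had an SD of 0.06, and Cfap20 had 0.10. By role, the median SD was 1.28 for the ependymal genes Foxj1, Tmem212 and Ccdc153, 0.48 for outer arm heavy chains, 0.44 for proteins inside the doublet microtubules, 0.39 for spoke and regulatory complex proteins and 0.35 for inner arm heavy chains. It was lower for intermediate chains (0.32), the central pair (0.30), the remaining Cfap genes (0.14) and the assembly factors (0.12). These medians take members at any count, and the SD also depends on the count, so the order of roles is partly one of counts. A mean of at least 100 was reached by 6 of 12 proteins inside the doublets and 8 of 12 assembly factors, against 59 of all 79 members.

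**Figure D2:**
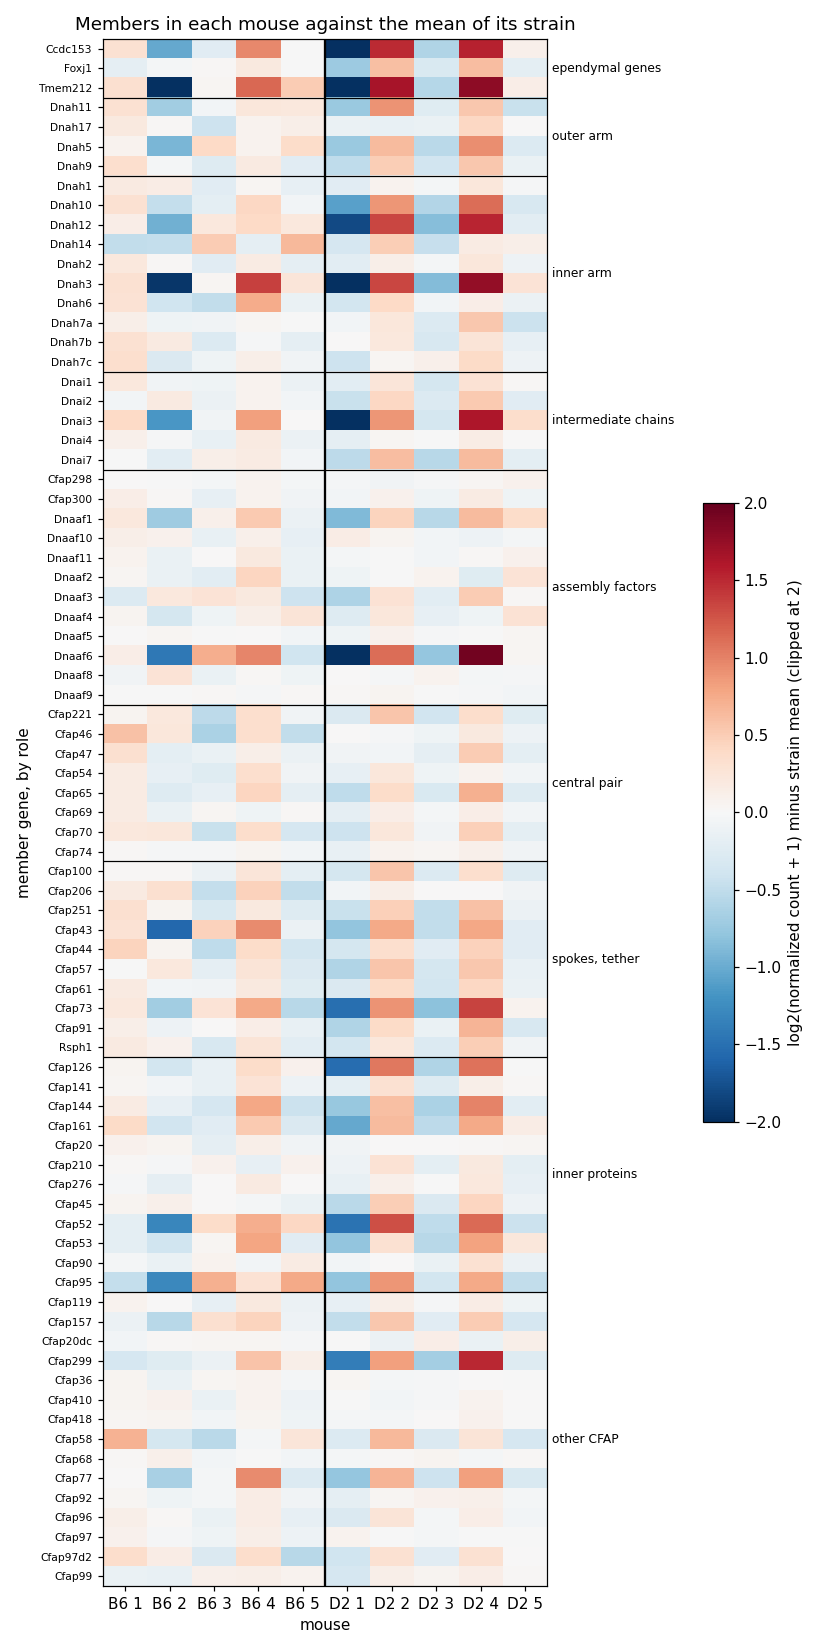
Each of the 79 members (rows, grouped by role) in each mouse (columns), coloured by its log2(normalized count + 1) minus the mean of the 5 mice of the same strain, clipped at 2. D2 mice 2 and 4 are red and D2 mouse 1 is blue in most rows, while rows such as Dnaaf9, Cfap36 and Cfap97 are nearly white in all 10 mice.

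Lists of other genes were read in the same libraries. The 61 other genes of the motile cilium on the list used followed the members: D2 mice 2 and 4 were the highest pair in 50 of them (82.0%), and their mean log2 level relative to the strain mean was -0.41, 0.35, -0.26, 0.43 and -0.10 in D2 mice 1 to 5. The 8 ependymal genes outside the axoneme had 0.82 and 0.76 in D2 mice 2 and 4, and -1.14 in D2 mouse 1 and -0.76 in B6 mouse 2. Cd24a, a surface protein of ependymal cells and neuroblasts, was 1334 and 1119 normalized counts in D2 mice 2 and 4 and 459 to 715 in the other D2 mice. The 12 genes of the subventricular zone, the neurogenic layer beneath the ependyma, moved the same way, with a summed level of 213 and 193 CPM in D2 mice 2 and 4 and 144 to 160 CPM in the other 3. Cd24a is on both lists, and the part of a differing share of ventricular wall in the members' values was not tested.

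Genes of the choroid plexus, the other ciliated epithelium of the ventricles, did not follow that order in their summed level. Their summed level over 12 genes was 20.5 to 42.5 CPM in B6 and 38.2 to 50.5 CPM in D2, with D2 mouse 1 the highest of the 10 mice and D2 mouse 2 the lowest D2 mouse. Most of this sum was Clic6 and Kl, and the defining marker Ttr, the thyroid hormone carrier that choroid plexus makes in great amount, had 4.07 to 53.7 normalized counts. Folr1, another marker, was at 0 in 4 D2 mice. With these markers so low, the list is a weak measure of choroid plexus tissue. Clic6 had 1425 and 1553 normalized counts in B6 mice 3 and 5 and 3152 to 3379 in the other B6 mice. D2 mice 2 and 4 were the highest pair in 2 of the 12 genes (16.7%, against 12.8% of all genes), Kl and Otx2. Genes of intraflagellar transport and of the primary cilium did not share the spread: their summed level was 1590 to 1640 CPM in B6 and 1560 to 1620 CPM in D2, with a median SD of 0.07, and D2 mice 2 and 4 were the highest pair in 9 of 35 (25.7%).

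**Figure D3:**
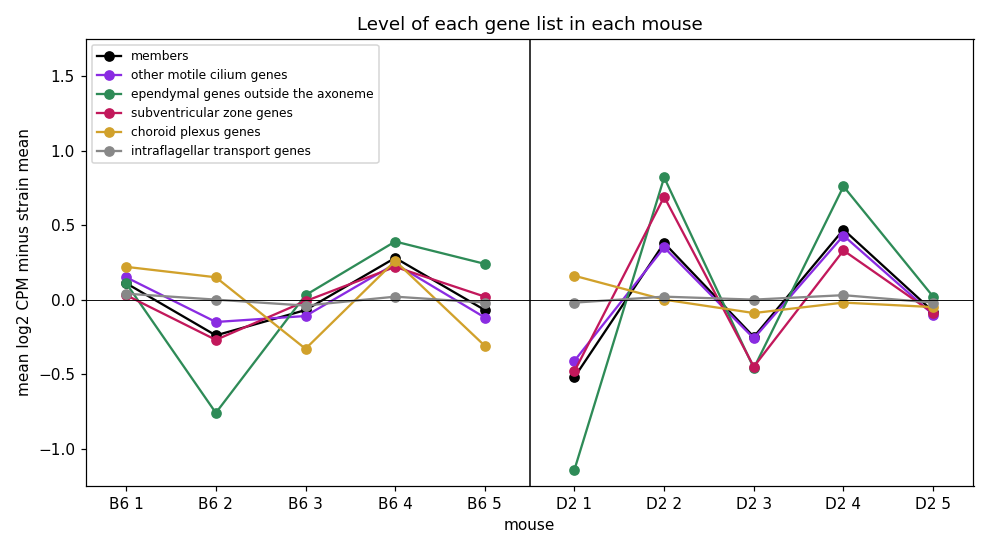
Mean log2 CPM of 6 gene lists in each mouse (horizontal axis) minus the mean of its strain (vertical axis). The members (black), other motile cilium genes, ependymal genes outside the axoneme and subventricular zone genes are above 0 in D2 mice 2 and 4 and below it in D2 mice 1 and 3, while choroid plexus and intraflagellar transport genes stay between -0.33 and 0.26 throughout.

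Against this spread, 16 of the 79 members (20.3%) differed between the strains at an adjusted p under 0.05. The share over all genes tested was 18.3%, so the members were called about as often as other genes. Of the 16, 11 were higher in D2 (13.9%, against 8.50% of all genes) and 5 were lower (6.33%, against 9.83%). Reads of both strains were aligned to the B6 genome, and the part of this in values lower in D2 was not tested. The strains did not overlap in 13 members (16.5%, against 16.0% of all genes). The median log2 fold change was 0.14 over the members and 0.00 over all genes, and 57 members had a positive value. Their summed level was 743 to 826 CPM in B6 and 818 to 967 CPM in D2, with D2 mouse 1 inside the B6 range. The sum gives most weight to members with high counts and does not describe a shared rise. Dnaaf9, the member with the highest counts, had nearly equal means of 20201 normalized counts in B6 and 20232 in D2. Cfap54, Dnah6 and Cfap46 went from means of 1189, 296 and 770 normalized counts in B6 to 4645, 2931 and 3106 in D2. The summed level of Foxj1, Tmem212, Ccdc153 and Rsph1 had a mean of 12.1 CPM in each strain.

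**Figure D4:**
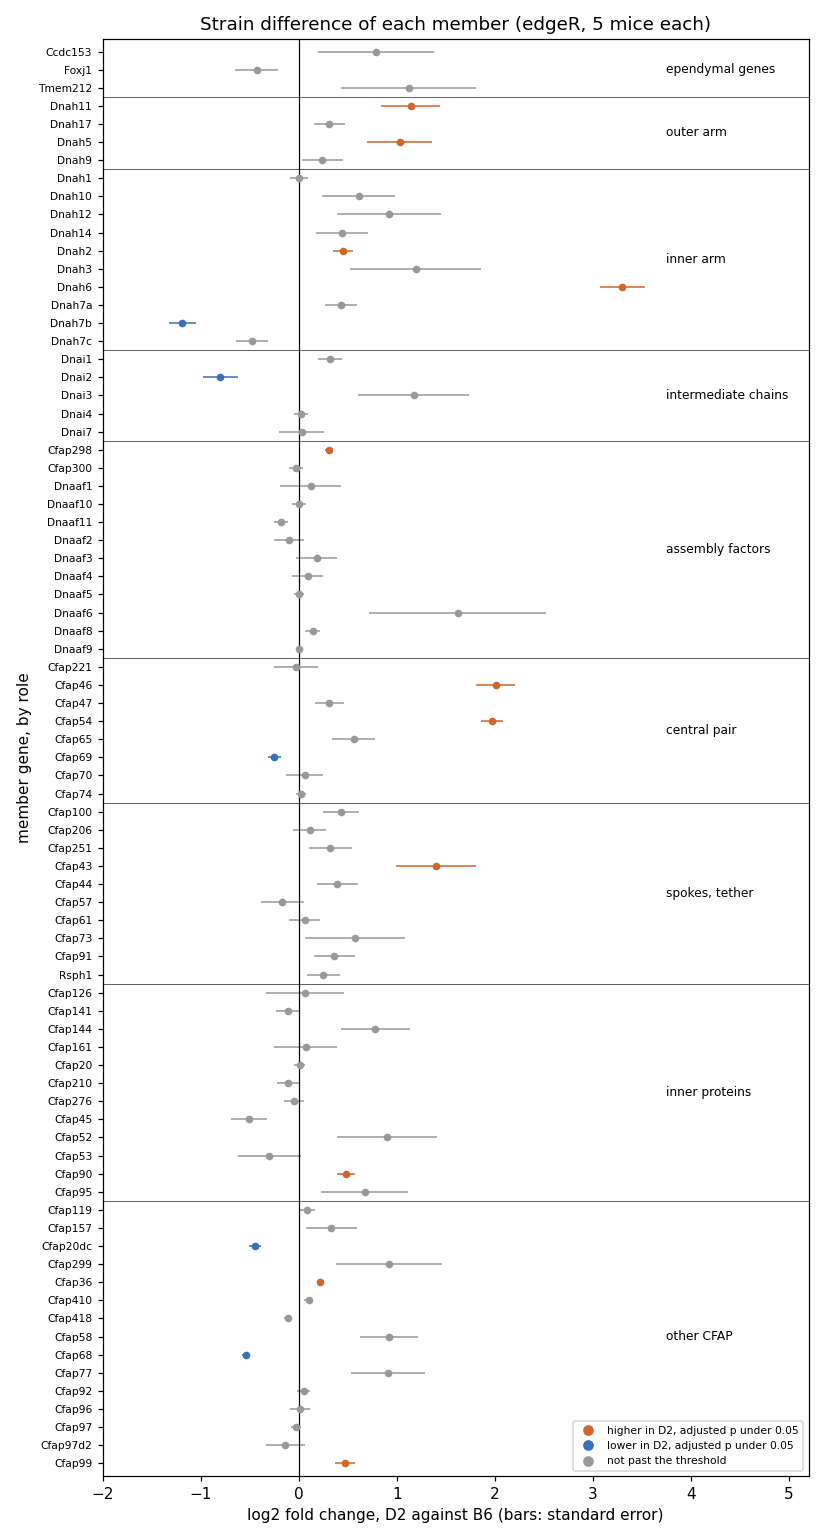
Log2 fold change of D2 against B6 (horizontal axis) with its standard error for each of the 79 members, grouped by role; orange members were higher and blue members lower in D2 at an adjusted p under 0.05. Dnah6, Cfap46 and Cfap54 lie farthest to the right and Dnah7b farthest to the left.

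The outer arm heavy chains, the motors that set the beat frequency, were Dnah5, Dnah9, Dnah11 and Dnah17, and 2 of these 4 were higher in D2. Dnah11 had 140, 69.1, 109, 133 and 131 normalized counts in B6 and 140, 437, 197, 341 and 172 in D2, so that the lowest D2 mouse met the highest B6 mouse (log2 fold change 1.14, SE 0.30, adjusted p = 0.019). Dnah5, the highest of the 4, had 359, 181, 450, 360 and 439 in B6 and 389, 1011, 450, 1249 and 541 in D2 (log2 fold change 1.03, SE 0.33, adjusted p = 0.049). In both genes D2 mice 2 and 4, the mice with the highest ependymal genes, held the highest values, and in Dnah5 the strains overlapped. Without D2 mouse 4 neither call held, and that of Dnah5 was lost in 8 of the 10 fits that left out 1 mouse. Dnah9 had means of 412 ± 74.8 in B6 and 487 ± 167 in D2 (SD, n = 5 each) and Dnah17, known from sperm, 57.4 ± 8.89 and 71.5 ± 13.4, and neither passed.

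Among the 10 inner arm heavy chains, Dnah6 and Dnah2 were higher and Dnah7b lower in D2. Dnah6 (ENSMUSG00000052861, minus strand, chr6:72994589-73199178 in GRCm39) had 345, 212, 200, 469 and 255 normalized counts in B6 and 2239, 3814, 2777, 3169 and 2654 in D2. The lowest D2 mouse was far above the highest B6 mouse. Its means of 296 ± 112 and 2931 ± 595 (SD, n = 5 each) gave a log2 fold change of 3.30 (SE 0.23, adjusted p = 3.7e-07), or 9.88-fold, the largest of the members past the threshold. Dnah2, which forms a double-headed inner arm with Dnah10, had 1395 to 1877 normalized counts in B6 and 1931 to 2621 in D2, without overlap (log2 fold change 0.45, SE 0.10, adjusted p = 0.0063). Its partner Dnah10 had 261 ± 65.0 in B6 and 399 ± 255 in D2 and did not pass (log2 fold change 0.61, SE 0.37, adjusted p = 0.32). Dnah1, the highest inner arm heavy chain, had nearly equal means of 2698 ± 342 and 2705 ± 318.

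The Dnah7 genes are close copies that lie on chromosome 1. Dnah7b (ENSMUSG00000041144, plus strand, chr1:46105475-46412710 in GRCm39) had 899, 824, 603, 717 and 643 normalized counts in B6 and 321, 372, 256, 385 and 286 in D2. Every D2 mouse was below every B6 mouse, and the log2 fold change was -1.19 (SE 0.14, adjusted p = 4e-05), 2.27-fold lower. The part of the alignment of D2 reads to the B6 genome in this value was not tested. Dnah7c, beside it, had means of 123 ± 20.4 and 88.0 ± 17.5 (log2 fold change -0.48, SE 0.16, adjusted p = 0.057), and Dnah7a had 164 ± 9.99 and 220 ± 61.1 (0.43, SE 0.16, adjusted p = 0.094). In a transcript of each gene, 10.4% (Dnah7a), 11% (Dnah7b) and 13.3% (Dnah7c) of windows of 150 bases occurred unchanged in another copy, so counts could be shared between them and the values of single copies are uncertain. The sum of the 3 was 873 to 1231 normalized counts in B6 and 524 to 808 in D2, again without overlap.

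Intermediate chains anchor the motors to the doublets. Of 5, only Dnai2, a chain of the outer arm, passed: it had 289, 340, 277, 317 and 289 normalized counts in B6 and 122, 223, 138, 240 and 142 in D2. The strains did not overlap although D2 mice 2 and 4 were again the highest D2 mice (log2 fold change -0.80, SE 0.18, adjusted p = 0.0065). Dnai1, its partner in the outer arm, had 396 ± 38.0 in B6 and 495 ± 93.2 in D2 (log2 fold change 0.32, SE 0.12, adjusted p = 0.095). Dnai4, the highest of the group, had 1971 ± 192 and 2005 ± 163. The called outer arm genes lay on both sides of 0, with Dnah11 and Dnah5 above it and Dnai2 below.

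Of 12 assembly factors, 1 passed. Cfap298, needed for the cytoplasmic assembly of dynein arms, had 2009 to 2170 normalized counts in B6 and 2449 to 2724 in D2. The gap was wide against the spread (log2 fold change 0.31, SE 0.042, adjusted p = 1.7e-04). Gm49727, a gene model on the opposite strand, covers 27.0% of the exon bases of Cfap298 and had means of 9.34 and 3.07 normalized counts (log2 fold change -1.57, SE 0.47, adjusted p = 0.033). Its part in the value of Cfap298 was not tested. The other assembly factors included Dnaaf5 (922 ± 19.2 and 922 ± 39.8), Dnaaf9 (20201 ± 339 and 20232 ± 558) and Dnaaf1 (49.9 ± 14.9 and 54.3 ± 22.6).

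Of 8 central pair members, 2 were higher and 1 lower in D2, and the median log2 fold change of the 8 was 0.19. Cfap54 (ENSMUSG00000020014, minus strand, chr10:92611481-92923165) had 1311, 1045, 994, 1478 and 1118 normalized counts in B6 and 4138, 5438, 4377, 4839 and 4434 in D2. Cfap46 (ENSMUSG00000049571, minus strand, chr7:139180867-139263733) had 1093, 852, 469, 919 and 519 in B6 and 3117, 3054, 2923, 3549 and 2889 in D2. Both encode proteins of the same projection of the central pair, and in both every D2 mouse was well above every B6 mouse. Means were 1189 ± 201 in B6 and 4645 ± 510 in D2 for Cfap54 (log2 fold change 1.97, SE 0.11, adjusted p = 5.9e-08, 3.90-fold) and 770 ± 268 and 3106 ± 264 for Cfap46 (2.01, SE 0.20, adjusted p = 1e-05, 4.03-fold). Cfap46 was lowest in B6 mice 3 and 5, the mice with high cortical neuron genes, and its log2 fold change was 1.7 without them. Other proteins of this projection did not pass: Cfap74 had 3393 ± 104 and 3434 ± 241 (log2 fold change 0.02, SE 0.049), and Cfap221 had 66.2 ± 14.4 and 65.1 ± 20.2 (-0.03, SE 0.22). Cfap69, of another projection, was lower in D2 at 2219 ± 202 against 2630 ± 209, with overlap (log2 fold change -0.25, SE 0.070, adjusted p = 0.027), and this call was lost in 5 of the 10 fits that left out 1 mouse, with total-count scaling and with the choroid plexus level as covariate.

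Among 10 proteins of the spokes, the tether and the regulatory complexes, Cfap43 passed. This tether protein of the inner arm had 107, 28.9, 120, 169 and 80.1 normalized counts in B6 and 139, 406, 170, 411 and 205 in D2. The strains overlapped, D2 mice 2 and 4 were the highest and B6 mouse 2 the lowest (log2 fold change 1.40, SE 0.41, adjusted p = 0.03). The call was lost without B6 mouse 1, B6 mouse 5, D2 mouse 2 or D2 mouse 4, and with the choroid plexus level as covariate. Cfap44, its partner in the tether and the highest of the group, had 1210 ± 348 and 1586 ± 419 (log2 fold change 0.39, SE 0.21, adjusted p = 0.24).

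Of the 12 members grouped here as proteins inside the doublet microtubules, only Cfap90 passed, with 423 to 517 normalized counts in B6 and 582 to 791 in D2 (log2 fold change 0.48, SE 0.093, adjusted p = 0.0027). Adcy2, an adenylyl cyclase gene on the opposite strand, covers 65.0% of its exon bases and had means of 10900 and 9800. The strand setting used in counting is not given in the sources used here, so reads of the pair may be mixed, and the value of Cfap90 is uncertain. Cfap20, the highest of the group, had 5222 ± 453 and 5252 ± 162. Cfap45, an inner protein of the doublets, had 419 ± 26.1 and 294 ± 91.7 and did not pass (log2 fold change -0.51, SE 0.18, adjusted p = 0.064).

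The remaining 15 Cfap genes held 4 that passed, all without overlap of the strains. These genes were not placed in a group above, and some may share the role of such a group. Cfap68 (ENSMUSG00000037971) had 2396 to 2684 normalized counts in B6 and 1667 to 1775 in D2, a difference with little spread in either strain (log2 fold change -0.54, SE 0.043, adjusted p = 1.5e-06). Fdxacb1, on the opposite strand, covers 25.6% of its exon bases and had a log2 fold change of -0.12 (SE 0.064, adjusted p = 0.23). Cfap20dc, whose promoter holds an X-box, had 1612 to 1721 in B6 and 1120 to 1343 in D2 (log2 fold change -0.45, SE 0.060, adjusted p = 1.4e-04). In this gene D2 mice 2 and 4 were the lowest D2 mice, the reverse of most members. Cfap99 had 230 to 275 in B6 and 277 to 386 in D2 (log2 fold change 0.47, SE 0.10, adjusted p = 0.0065). Cfap36 had 6702 to 7672 in B6 and 8340 to 8798 in D2 (log2 fold change 0.22, SE 0.040, adjusted p = 0.0017), and Ppp4r3b on the opposite strand covers 15.3% of its exon bases and had 0.08 (SE 0.052, adjusted p = 0.34).

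Of the 61 other motile cilium genes, 4 were higher and 6 lower in D2 (against 8.50% and 9.83% of all genes), and their median log2 fold change was 0.20. The 3 with the largest differences among those that passed were Armc3, Mns1 and Rsph3b. Armc3 had 50.3 to 98.2 normalized counts in B6 and 132 to 335 in D2 (log2 fold change 1.68, SE 0.27, adjusted p = 6.1e-04). Mns1, a protein inside the doublets, had 293 to 432 in B6 and 787 to 1249 in D2 (1.53, SE 0.14, adjusted p = 5.4e-06). Rsph3b, a radial spoke protein with a close copy in the mouse, had 743 to 962 in B6 and 405 to 604 in D2 (-0.84, SE 0.11, adjusted p = 1.5e-04). Like Dnah6 and Dnah7b, these genes differed without overlap of the strains. Of the 35 genes of intraflagellar transport and the primary cilium, 8 were higher and 6 lower (against 8.50% and 9.83% of all genes), with a median log2 fold change of 0.02.

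The strain difference was also fitted with the mean level of the 61 other motile cilium genes as a covariate, so that mice were compared at equal levels of those genes. The 61 include the 10 that themselves differed between the strains. In this fit 21 members passed (26.6%, against 16.3% of all genes), 11 higher (7.54% of all genes) and 10 lower in D2 (8.76% of all genes), and they included 15 of the 16 above, Dnah5 being the exception. Dnah6 had a log2 fold change of 3.12, Cfap46 1.92, Cfap54 1.86 and Dnah7b -1.30, all close to their values without the covariate. Dnah11 was 0.70 in place of 1.14 and Cfap43 was 0.89 in place of 1.40. Foxj1 passed in this fit and was lower in D2 (log2 fold change -0.80, adjusted p = 8.9e-04), as were Cfap45 (-0.77, adjusted p = 6.5e-04), Dnah7c (-0.62), Cfap126 (-0.71) and Cfap57 (-0.50), while Cfap65 was higher (0.23, adjusted p = 0.04). Tmem212, Ccdc153, Dnah3 and Dnah12 had log2 fold changes of -0.21, -0.39, -0.05 and -0.23 and did not pass.

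**Figure D5:**
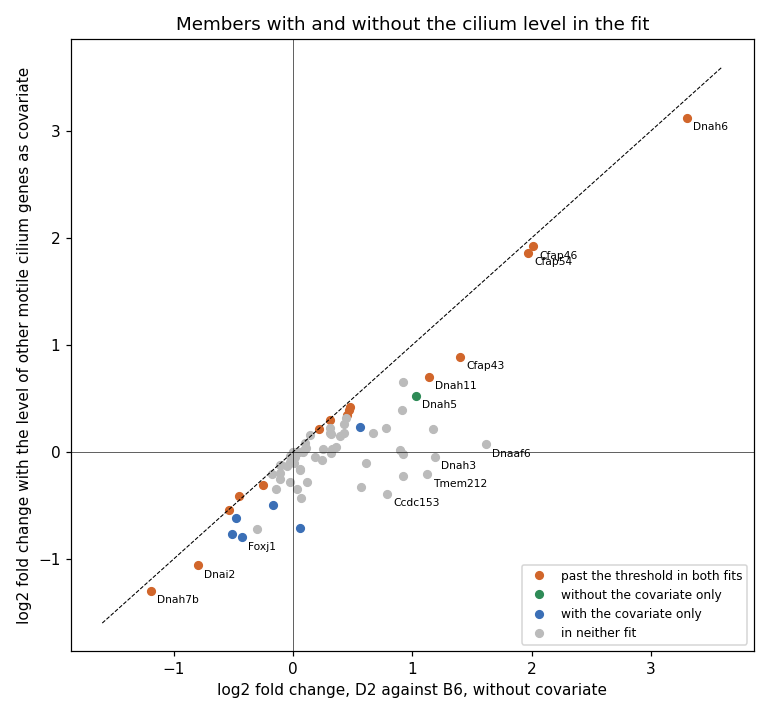
Log2 fold change of D2 against B6 of each member without (horizontal axis) and with (vertical axis) the mean level of 61 other motile cilium genes in the fit; the dashed line marks equal values. Dnah6, Cfap46, Cfap54 and Dnah7b lie near the line, while Tmem212, Ccdc153 and Dnah3 fall from positive values to below 0 and Foxj1 passes with the covariate and not without it.

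Counts were also taken without the mice that stood apart. Without D2 mice 2 and 4, 16 members passed (against 13% of all genes), 6 of them higher (5.98%) and 10 lower in D2 (7.06%). These mice were picked for their high levels of the members, so leaving them out lowers the D2 mean of those genes by construction. Of the 16 members called with all mice, 11 were shared. Dnah2 had a log2 fold change of 0.33 (adjusted p = 0.06) and Cfap99 had 0.38 (adjusted p = 0.064), in place of 0.45 and 0.47. The values moved more in Dnah11 (0.54), Dnah5 (0.36) and Cfap43 (0.76), whose calls were lost too. Foxj1 (-0.92, adjusted p = 8e-04), Cfap45 (-0.87), Dnah7c (-0.63), Cfap57 (-0.60) and Dnai7 (-0.49) were lower in D2 in this setting. Without B6 mice 3 and 5, 16 members passed as well (against 19.2% of all genes), 11 higher (9.68%) and 5 lower (9.54%), and 14 were shared. Cfap69 and Cfap43 no longer passed in this setting (adjusted p = 0.068 and 0.065), at nearly the same log2 fold changes of -0.23 and 1.39, and Dnah14 and Cfap418 passed in addition. Of the shared members, Cfap46 had 1.7 in place of 2.01 and Dnah2 had 0.33 in place of 0.45. Others moved away from 0, among them Dnah5 (1.28 in place of 1.03) and Dnah7b (-1.33 in place of -1.19). DESeq2 on all mice called 19 members (24.1%, against 21.5% of the genes it tested), 12 higher (15.2%, against 10.2%) and 7 lower (8.86%, against 11.3%). Dnah6, Cfap46, Cfap54, Dnah7b, Dnai2, Cfap68, Cfap20dc, Cfap298, Cfap90 and Cfap36 passed in each of these settings and in each of the 10 fits that left out 1 mouse.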

How the data were processed

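RNA from the NAc of 10 mice (5 B6, 5 D2) was sequenced as poly-A libraries. Per the labels and the study's methods, the authors aligned reads to GRCm39, the B6 genome, for both strains with STAR 2.7.10b, used SAMtools 1.6 and counted reads per Ensembl gene with featureCounts; the strand setting is not given in the sources used here. The values deposited by the authors are unscaled read counts for each gene, and the lowest median of a deposited gene was 0.5. Counts were scaled by TMM and tested with edgeR 4.0.16 (quasi-likelihood test, R 4.3.3) over all 29883 genes, D2 against B6, with Benjamini-Hochberg adjustment and a threshold of 0.05; SE was derived from the fold change and its F statistic. Log2 CPM used a prior count of 2. The labels call the samples biological replicates, 1 mouse each. Intervals were not computed and depth covers counting error only. Symbols and exon lengths came from the GENCODE annotation of GRCm39, which held 29519 of the genes.

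The members and lists were chosen with earlier results of these data known. Genes named are the ependymal genes of the rule, every member past the threshold, the 5 highest per kilobase, the 3 with the largest spread at a mean of at least 100 counts, the highest of each role and the 3 other motile cilium genes with the largest called differences; a few others were named after their values were seen, as partners or contrasts of these. Alternatives were other normalizations, DESeq2 1.42.0, count filters, a replicate block, covariates, a threshold of 0.01 and leaving out mice. The model was tested on simulated data. Figures were drawn with matplotlib 3.10.9.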

Additional observations from a re-analysis of the deposited data

Results flagged for a closer look

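In 3 of 88 groups of 5 mice, the highest or lowest mouse lay far from the other 4, and chance alone gives about 1 in 20 such groups. Cfap99 had 277 normalized counts in D2 mouse 1 and 357 to 386 in the other D2 mice. Dnah12 had 54.7 normalized counts in B6 mouse 2 and 117 to 142 in the other B6 mice. The summed level of Foxj1, Tmem212, Ccdc153 and Rsph1 was 14.9 CPM in B6 mouse 4 and 11.1 to 11.8 CPM in the other B6 mice.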

How the results depend on the processing

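With each mouse left out in turn, 14 to 17 members passed, 8 to 12 higher and 4 to 7 lower in D2, and over all genes 4636 to 5676 passed, with 2115 to 2703 higher and 2493 to 2973 lower. The summed level of the members, D2 against B6, was 0.18 on the log2 scale and 0.15 to 0.21 with a mouse left out, and the median SD was 0.31 to 0.34. At a threshold of 0.01 the count over all genes was 3415, with 1579 higher and 1836 lower. Lower members numbered 10 with the level of other motile cilium genes in the fit, and 10 without D2 mice 2 and 4, where higher members numbered 6 and the median SD was 0.2; these mice were left out after seeing the data, as were B6 mice 3 and 5. The 4 genes Foxj1, Tmem212, Ccdc153 and Rsph1 alone gave a summed level of -0.11 in place of 0.18.

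Signs turned in members that did not pass. With the cilium covariate, log2 fold changes were -0.39 for Ccdc153, -0.022 for Cfap20, -0.03 for Cfap74, -0.088 for Dnah1, -0.23 for Dnah12, -0.048 for Dnah3, -0.047 for Dnai4 and -0.21 for Tmem212. Without D2 mice 2 and 4 they were -0.49 for Ccdc153, -0.0023 for Cfap20, -0.041 for Cfap74, -0.011 for Dnaaf9, -0.1 for Dnah1, -0.42 for Dnah12, -0.11 for Dnah3, -0.037 for Dnai4, -0.015 for Rsph1 and -0.34 for Tmem212. Without B6 mice 3 and 5 they were -0.076 for Cfap20, -0.0053 for Cfap74, -0.12 for Dnah1 and -0.061 for Dnai4. With the choroid plexus level as covariate they were -0.074 for Cfap20, -0.1 for Dnah1 and -0.052 for Dnai4. Filters gave -0.0042 for Dnaaf9 and -0.0021 for Dnah1 (edgeR's own filter) and -0.0018 for Dnaaf9 (at least 10 counts), and total-count scaling gave 0.0045 for Cfap97. With 1 mouse left out, Cfap20 ran from -0.041 to 0.039, Cfap74 from -0.0069 to 0.052, Cfap97 from -0.059 to 0.0047, Dnaaf9 from -0.012 to 0.014, Dnah1 from -0.058 to 0.058 and Dnai4 from -0.015 to 0.072. The cause of these turns was not tested. Of called members, Cfap69 missed the threshold with total-count scaling (adjusted p = 0.058) and the choroid plexus covariate (0.073), Cfap43 with that covariate (0.054), and Dnah5 with the count filters (0.052 and 0.055).

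The mice of the strains share replicate numbers, and the labels state no pairing. Deviations of same-numbered mice from their strain means had r = 0.371, -0.415, 0.369, 0.034 and -0.293 for numbers 1 to 5 (15388 genes). Whether a shared number marks a shared batch was not tested. With the replicate number as a block, 13 members passed, 8 higher and 5 lower, against 15.8% of all genes, and Dnah11 (log2 fold change 1.04), Dnah5 (0.92), Cfap43 (1.36) and Cfap69 (-0.25) no longer passed while Cfap45 did. Members at low counts, such as Dnaaf6 with 0 in 2 mice, are the least precise.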
